A study of Mus musculus with 12 samples.

Results

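The insulin-like growth factor (IGF) system was followed in ventral hippocampus (vHPC) of WT and FosB KO mice. It was taken as 10 genes, listed by symbol, the ligands Igf1 and Igf2, the receptors Igf1r and Igf2r, and the binding proteins Igfbp2, Igfbp3, Igfbp4, Igfbp5, Igfbp6 and Igfbp7, out of 37310 genes with a row in the counts. Each of the 10 symbols matched a single Ensembl gene. The study used circuit-specific TRAP-Seq, in which mRNA bound to tagged ribosomes is pulled down from a chosen set of neurons, to compare vHPC neurons that project to nucleus accumbens (NAc) with and without FosB. All mice were C57BL/6 and carried the Rosa26 eGFP/L10a allele, a Cre-dependent ribosomal protein L10a fused to GFP, and all received retrograde HSV-Cre in NAc 3 weeks before the tissue was taken. WT mice had no floxed FosB allele, whereas KO mice were FosB fl/fl, so that the same Cre removed FosB and switched on the tag. Each genotype had 3 pools of mice (WT pools 1 to 3 and KO pools 2 to 4), of 3 mice by the labels and 3 to 4 by the methods, and the punches of each pool yielded both TRAP RNA and input RNA from the whole tissue, which makes 4 groups of 3 libraries, WT and KO for TRAP and WT and KO for input. By design Cre came only from the vector, and the input also held the cells of the punch that the vector did not reach.

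IGF1 and IGF2 are secreted peptides that act mainly through the IGF1 receptor, a tyrosine kinase that signals through insulin receptor substrates to PI3K, Akt and mTOR. The IGF2 receptor, also the cation-independent mannose 6-phosphate receptor, takes IGF2 up for breakdown in lysosomes. The binding proteins hold IGFs in the extracellular space and set how much ligand reaches a receptor, and in brain IGF signaling is known for roles in neuronal growth, survival and synaptic plasticity.

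FosB is a partner in AP-1, a transcription factor that binds the AP-1 element TGANTCA, so the promoters of the members were searched for it. RefSeq promoter windows on GRCm38.p6, of 250 bases before and 50 bases after a start, were held for all 10 members in 14 windows. TGANTCA reads the same on both strands. It occurred in 7.81% of all 32851 windows, and among the members in a window of Igf1 and in a window of Igfbp2, shown here in capitals because they were the only member windows with it.
Igf1, chr10:87861059-87861095, plus strand: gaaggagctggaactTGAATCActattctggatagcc
Igfbp2, chr1:72825333-72825369, plus strand: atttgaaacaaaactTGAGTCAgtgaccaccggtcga
The element began 37 bases before the Igf1 start and 39 bases before that Igfbp2 start. The related cAMP response element TGACGTCA, which also reads the same on both strands and does not contain TGANTCA, occurred in 1.79% of windows and in no member's. Igfbp6 and Igfbp3, the 2 members with a p under 0.05 before adjustment between genotypes in TRAP, had neither, which says only that these letters are not in the windows searched. Their upstream sequences are shown because they contrast in base composition, with the CG dinucleotides in capitals.
Igfbp6, chr15:102143936-102144185, plus strand: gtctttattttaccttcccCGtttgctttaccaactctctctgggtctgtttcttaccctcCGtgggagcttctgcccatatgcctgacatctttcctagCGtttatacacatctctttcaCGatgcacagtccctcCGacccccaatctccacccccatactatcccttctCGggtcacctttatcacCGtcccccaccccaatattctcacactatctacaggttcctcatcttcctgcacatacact
Igfbp3, chr11:7213924-7214173, minus strand: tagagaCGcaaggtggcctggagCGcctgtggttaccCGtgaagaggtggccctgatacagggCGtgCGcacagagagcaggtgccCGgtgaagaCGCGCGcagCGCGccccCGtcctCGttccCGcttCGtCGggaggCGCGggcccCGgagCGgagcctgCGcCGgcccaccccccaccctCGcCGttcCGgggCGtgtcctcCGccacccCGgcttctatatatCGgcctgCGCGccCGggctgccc
The whole 300-base window held 8 CG dinucleotides in Igfbp6 and 37 in Igfbp3, against a median of 7 over all windows. Across the 14 member windows the number ran from 2, in a window of Igf2, to 48 in Igf1r.

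Library depth was 3416030 to 5614089 counts on genes. A floor of 3 counts stood for 0.535 to 0.873 CPM, which are counts scaled to library size with TMM factors. In TRAP, Fosb was at 45.3, 32.0 and 40.2 CPM for WT and 29.4, 18.8 and 21.5 for KO, without overlap (log2 change -0.76, SE 0.21, edgeR adjusted p = 0.337). In input it was at 30.3, 22.3 and 24.5 CPM for WT and 17.1, 16.0 and 14.9 for KO, also without overlap (-0.68, SE 0.22, edgeR adjusted p = 1), so that KO stood at 59.0% of WT in TRAP and at 62.5% in input. Counts here are per gene, so any reads on Fosb exons outside the floxed part are included. Which exons the remaining reads lay on was not tested. The study, from its plots of reads along the gene, described FosB expression in floxed mice as almost absent, which these counts per gene do not show. Summed markers of glutamate neurons, led by Camk2a, ran from 4960 to 5480 CPM in TRAP and 4190 to 4810 in input. Those of astrocytes, led by Slc1a2, were 273 to 374 in TRAP and 1660 to 2090 in input, those of oligodendrocytes (Mbp) 159 to 206 and 711 to 1130, those of microglia (Ctss) 6.60 to 21.6 and 98.8 to 195, and those of endothelium (Flt1) 2.14 to 8.67 and 13.4 to 33.5. Mural cell markers (Rgs5) summed to 28.2 to 60.8 CPM in TRAP and 54.4 to 96.6 in input, meningeal fibroblast markers (Ptgds) to 63.9 to 188 and 165 to 557, and choroid plexus and ependymal markers (Ttr) to 4.19 to 17.9 and 8.01 to 266. Single markers ran against their lists: Dcn, at 49.3 to 153 CPM most of the meningeal sum in TRAP (log2 change from input 1.16, SE 0.23), Cspg4 of the mural list (0.95, SE 0.22) and Cck of the GABA list (0.74, SE 0.07) were higher in TRAP, and were picked after their values were seen. Tek, Tie1 and Ly6c1 of endothelium, Kcnj8 of mural cells and Aqp1 of choroid plexus had no count in any TRAP library. KO TRAP 2 had 961 CPM of GABA neuron markers (led by Cck over all libraries), with Gad2 at 187 CPM, where the other TRAP libraries had 477 to 735 and at most 49.4, and so stood apart. WT input 1 had counts on 15678 genes, fewer than any other input library. It was also the shallowest, with 3416030 counts on genes where the other input libraries had 4271780 to 4636374. Values without these pools are given beside the genotype differences they moved most.

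Per length of mRNA, Igfbp6 was the most abundant member in both TRAP groups, and in input it was close to Igfbp4. Levels of different genes are compared here as CPM per kb of exon, over the exons of all transcripts of a gene in Gencode vM1. Igfbp6, a binding protein that prefers IGF2 over IGF1, stood at 44.0 ± 4.79 CPM per kb (SD, n = 3) for WT and 24.0 ± 6.91 for KO in TRAP, and at 20.0 ± 4.11 for WT and 16.5 ± 1.91 for KO in input. In both TRAP groups every Igfbp6 value was above every value of the next member. In both input groups its range overlapped that of Igfbp4, which came first there when levels were divided by the longest transcript in place of all exons (21.5 against 20.0 CPM per kb in WT, 17 against 16.5 in KO).
In WT TRAP the next were Igfbp4 (8.46 ± 3.83), Igfbp3 (7.21 ± 1.57) and Igfbp5 (6.54 ± 2.54 CPM per kb), followed by Igf1r (3.46 ± 1.1) and Igf2r (3.35 ± 0.768), and each of these overlapped with its neighbour in the order. Igfbp2, Igfbp7, Igf2 and Igf1 were all under 1 CPM per kb on average, from 0.631 ± 0.329 for Igfbp2 down to 0.176 ± 0.289 for Igf1, with overlapping ranges. In KO TRAP the first 4 were the same genes, except that Igfbp3 (12.2 ± 4.68) came before Igfbp4 (10.8 ± 4.15), again with overlap. In input the ligand Igf2 moved up to the fourth place, at 7.72 ± 3.67 CPM per kb in WT and 13.2 ± 2.71 in KO, while Igf1 was last in every group.

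**Figure D1:**
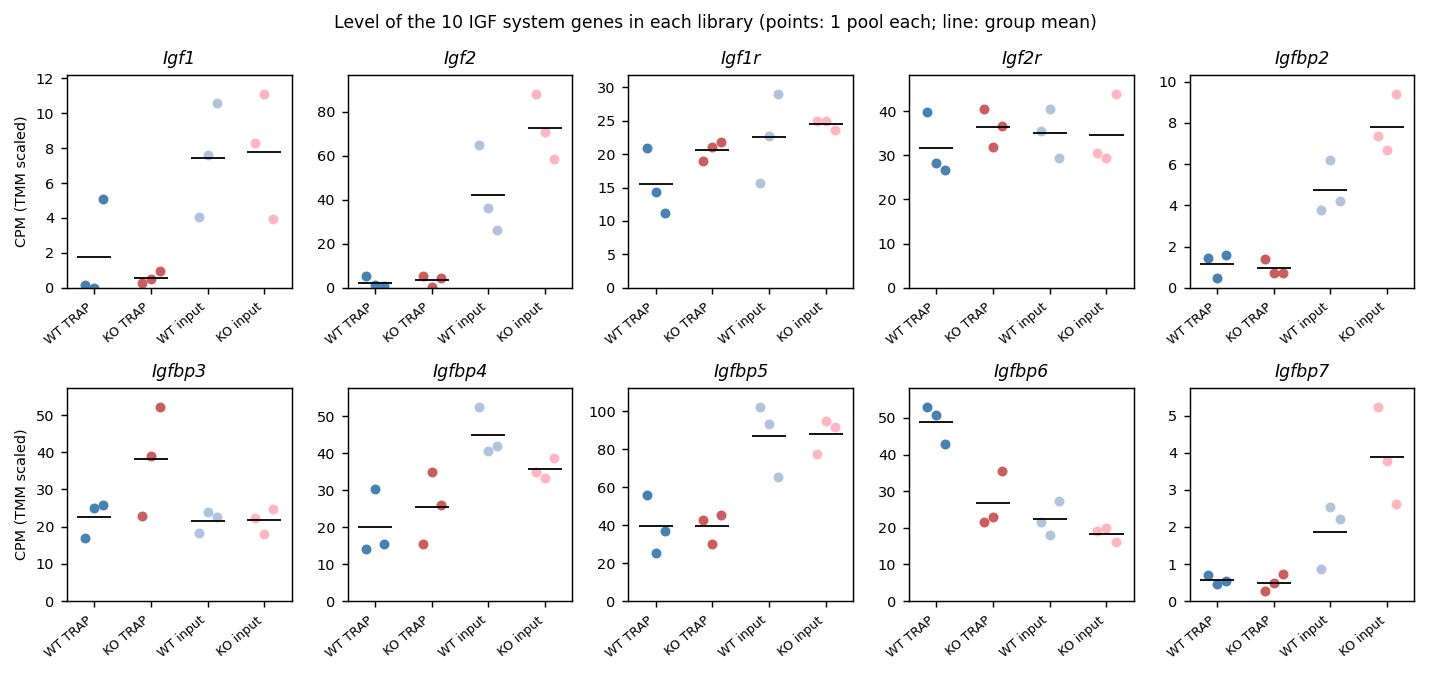
Level of each member in each library, in TMM-scaled CPM on axes that start at 0, with a point for each pool and a line at the group mean (n = 3). Igf2 sits between 26.1 and 88.1 CPM in input and at most at 5.59 in TRAP, whereas Igfbp6 is higher in WT TRAP (42.9 to 52.9) than in any other group.

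TRAP against input compared the level of each member on the tagged ribosomes with that in the whole punch. Such a ratio does not by itself say which cells a transcript came from. Both ligands and 4 of the 6 binding proteins were lower in TRAP, and Igfbp6 was higher. Igfbp3 was higher too, but at the edge of the threshold (edgeR adjusted p = 0.0496), a call that 9 of 14 alternatives lost. Of the 10 members, 8 passed an adjusted p of 0.05 over both genotypes, against 42.2% of the 13214 genes tested. Of these, 2 were higher, against 19.6% of all genes, and 6 were lower, against 22.5%. Among the lower, Igf1, Igfbp2 and Igfbp7 passed the filter through their input libraries and had too few counts to be tested within TRAP. Their direction was thus partly set by the filter, and the count of lower members is no test of them as a set. The median log2 change was -0.98 over the members and -0.01 over all genes. In such bulk samples fewer cells of a type and less RNA per cell cannot be told apart.

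Igf2 showed the largest difference of the members. In input it was at 64.9, 36.3 and 26.1 CPM in WT and 88.1, 70.6 and 58.6 in KO. In TRAP it was down to 5.17, 1.18 and 0.799 CPM for WT pools 1 to 3 and 5.59, 0.489 and 4.65 for KO pools 2 to 4. Every TRAP value was below every input value. The TRAP values rested on 2 to 29 counts, with WT TRAP 3 and KO TRAP 3 at or under the floor of 3. TRAP held 5.56% of the input level (log2 change -4.17, SE 0.47, edgeR adjusted p = 8.29e-05), with 6 of 6 pools lower in TRAP, at log2 ratios from -6.17 to -3.52. The exact sign-flip test over pools gave p = 0.03125, the smallest that 6 pools allow. Of its exon bases, 1.78% are shared with Igf2as on the other strand.

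Igf1, which in brain is made by some neurons and by microglia, was at 4.08, 7.58 and 10.6 CPM in WT input and 8.31, 11.1 and 3.93 in KO input. In TRAP it was at 0.178, 0 and 5.06 CPM in WT and 0.280, 0.489 and 0.979 in KO. WT TRAP 3, with 19 counts, was the single TRAP library clearly above the floor, and it reached into the input range. Over both genotypes Igf1 fell by 2.93 on the log2 scale (SE 0.66, edgeR adjusted p = 0.00184) and was lower in TRAP in 6 of 6 pools (exact sign-flip p = 0.03125). In WT alone the change was -2.19 (adjusted p = 0.143), in KO alone -3.66 (adjusted p = 0.000117). The WT value moved with pool 3, without which it was -5.52 (adjusted p = 0.0149), and with the TRAP and input library of a pool paired as a block it was -2.85 (adjusted p = 0.0134). With genes of low counts kept in the fit it passed on all 3 pools (-2.17, adjusted p = 0.00513).

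Neither receptor passed the test over both genotypes. In WT, Igf1r, the signaling receptor, was at 20.9, 14.4 and 11.2 CPM in TRAP and 15.7, 22.7 and 29.0 in input. In KO it was at 19, 21.0 and 21.8 CPM in TRAP and 24.9, 24.9 and 23.6 in input. In KO every TRAP value was below every input value, and 5 of 6 pools were lower in TRAP. In WT the fractions overlapped and pool 1 ran against the others, with a log2 TRAP over input of 0.40 where pools 2 and 3 had -0.64 and -1.33. The change over both genotypes was -0.39 (SE 0.17, 95% interval -0.75 to -0.03, edgeR adjusted p = 0.0749), and without WT pool 1 it was -0.61 (adjusted p = 0.00317). In WT alone it was -0.52 (adjusted p = 0.209), and -1.0 (adjusted p = 0.0149) without that pool, and in KO alone -0.26 (adjusted p = 0.355). Igf2r ranged from 26.6 to 40.5 CPM in TRAP and 29.4 to 43.9 in input, and its TRAP over input ratio was above 0 in 3 of 6 pools. Its log2 change was -0.04 (SE 0.14, 95% interval -0.33 to 0.26), which bounds a change without showing equal levels.

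Among the binding proteins, Igfbp5 was the best measured of those lower in TRAP. In WT it was at 55.6, 25.4 and 36.7 CPM in TRAP against 102, 93.0 and 65.2 in input. In KO it was at 42.8, 30.3 and 45.3 CPM in TRAP against 77.2, 95 and 91.8 in input. No TRAP value reached an input value. TRAP held 45.3% of the input level (log2 change -1.14, SE 0.17, edgeR adjusted p = 4.13e-05), with 46.0% in WT and 44.5% in KO. Igfbp2 lies beside Igfbp5 on chromosome 1, at chr1:72871077-72899048 on the plus strand against chr1:72904506-72921458 on the minus strand of mm9, and is known in brain mainly from glia, choroid plexus and meninges. It was at 0.471 to 1.60 CPM in TRAP, 2 to 8 counts a library, and 3.78 to 9.40 in input, a fall of 2.50 on the log2 scale (SE 0.42, adjusted p = 2.19e-05). Its change in WT alone, -1.99 (adjusted p = 0.0351), was at an adjusted p of 0.0599 with the paired block, 0.0537 with genes of low counts kept in the fit, 0.329 without pool 2 and 0.135 without pool 3.

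Igfbp7, best known from vessel walls, had 1 to 4 counts in every TRAP library and 3 to 22 in input, and fell by 2.26 on the log2 scale (SE 0.56, adjusted p = 0.0019). Its TRAP values lay at or next to the floor of 3 counts, and it passed the filter through input, so this fold and its p do not measure how far it fell. It was not tested in WT alone, within TRAP or with a mean of 10 counts as the filter. Of its exon bases, 7.01% are shared with Polr2b on the other strand, and the strand setting of the counting is not given in the sources used here. Igfbp4, a binding protein cut by the protease pappalysin, was at 14.1, 30.4 and 15.4 CPM in TRAP and 52.4, 40.7 and 41.8 in input for WT. For KO it was at 15.4, 34.9 and 25.9 CPM in TRAP and 34.9, 33.4 and 38.7 in input. The fractions did not overlap in WT and overlapped in KO, where pool 3 had nearly the same level in both. The change was -0.83 over both genotypes (SE 0.19, edgeR adjusted p = 0.00152; exact sign-flip p over pools 0.0625), -1.16 in WT (adjusted p = 0.00333) and -0.49 in KO (adjusted p = 0.108). In WT it was at an adjusted p of 0.0706 without pool 3, and in KO it reached -0.54 (adjusted p = 0.0469) with the paired block and -0.84 (adjusted p = 0.00999) without pool 3. The astrocyte, oligodendrocyte and microglia markers given earlier were lower in TRAP too, 10 of 10 genes of each list. So were 9 of 12 GABA neuron markers, with 1 higher, and 4 of 5 meningeal markers tested, with 1 higher. Of the mural markers tested, 4 of 6 were lower and 1 higher, of the endothelial 2 of 3 were lower, and of the choroid plexus and ependymal 1 of 4. Of 8 glutamate neuron markers, 4 were higher and 0 lower. The part of any of these cells in the fall of these members was not tested.

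Over both genotypes and in WT, Igfbp6 was the member most enriched in TRAP, while in KO it came after Igfbp3. It lies at chr15:101974793-101979942 on the plus strand of mm9. WT TRAP held 52.9, 50.9 and 42.9 CPM and WT input 21.5, 18.1 and 27.2. KO TRAP held 21.5, 23.0 and 35.5 CPM and KO input 19, 20.0 and 16.0. TRAP and input did not overlap in either genotype, although KO pools 2 and 3 lay close to their input. Over both genotypes TRAP was at 179% of input (log2 change 0.84, SE 0.15, edgeR adjusted p = 6.16e-05), and Igfbp6 was higher in TRAP in 6 of 6 pools (exact sign-flip p = 0.03125). In WT the change was 1.14 (SE 0.20, adjusted p = 0.000464), and in KO 0.53 (SE 0.22, adjusted p = 0.0788), where it passed with total counts in place of TMM (0.59, adjusted p = 0.049), and was 0.18 without pool 4 and 0.68 without pool 2, the pool with high GABA neuron markers.

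Igfbp3, the main carrier of IGFs in blood, lies at chr11:7106089-7113926 on the minus strand of mm9. For WT it was at 16.9, 25.0 and 25.8 CPM in TRAP and 18.3, 23.9 and 22.5 in input. For KO it was at 22.9, 39.1 and 52.1 CPM in TRAP and 22.3, 18.0 and 24.7 in input. KO TRAP 3 and 4 stood well above every input library and WT TRAP 2 and 3 just above, while WT TRAP 1 and KO TRAP 2 did not. The change was 0.43 over both genotypes (SE 0.18, edgeR adjusted p = 0.0496), a call at the edge of the threshold that 9 of 14 alternatives lost (adjusted p from 0.0116 to 0.151). The exact sign-flip p over the 6 pools was 0.15625. The change was 0.06 in WT (adjusted p = 0.893) and 0.81 in KO (adjusted p = 0.0195), the latter with an adjusted p of 0.189 without pool 3 and 0.164 without pool 4.

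**Figure D2:**
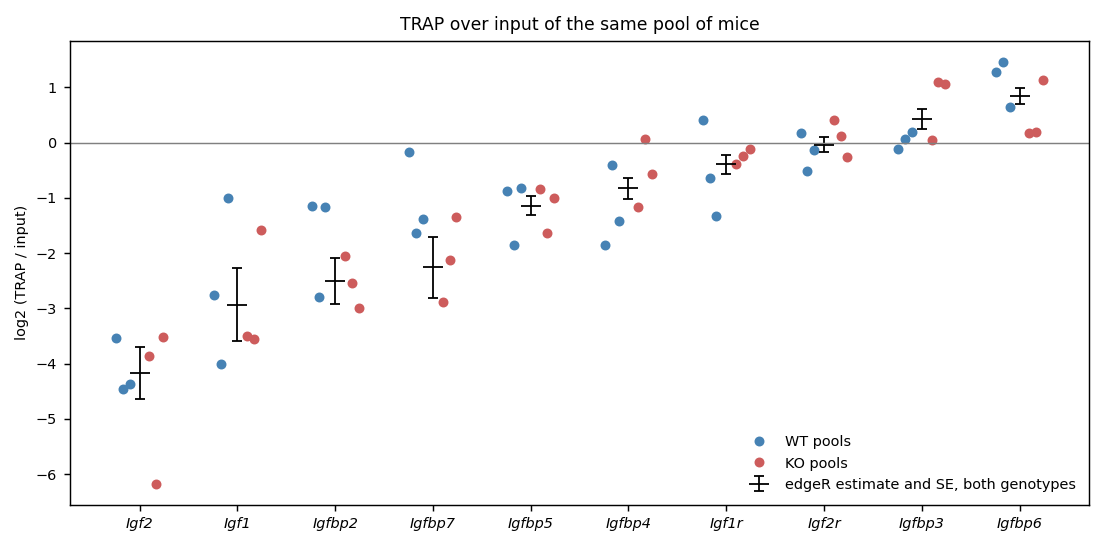
Log2 ratio of TRAP to input for each pool and member, from log2(CPM + 0.5), with WT pools in blue, KO pools in red and the edgeR estimate over both genotypes with its SE in black. Igf2 lies lowest, from -6.17 to -3.52, Igf2r is spread about 0, and Igfbp6 is above 0 in all 6 pools, from 0.18 to 1.46.

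Within a genotype, 5 of 9 members tested passed in WT, against 24.9% of all genes, and 6 of 10 in KO, against 29.1%. Whether TRAP enrichment differed between genotypes was tested as an interaction. By edgeR 0 of 10 members passed, against 0.00757% of the 13214 genes, and 0 passed by DESeq2. Before adjustment 1 member had a p under 0.05, against 2.71% of genes. This was Igfbp3, with a difference in log2 enrichment of 0.77 (KO minus WT, SE 0.35, edgeR adjusted p = 1). For Igfbp6 the difference was -0.59 (SE 0.30, 95% interval -1.21 to 0.03), and for Igfbp4 0.69 (SE 0.38, 95% interval -0.11 to 1.49). Leaving out each pool in turn, the difference ran from 0.57 to 1.02 for Igfbp3, from -0.95 (without KO pool 4) to -0.43 (without KO pool 3 or WT pool 2) for Igfbp6, and from 0.32 (without WT pool 1) to 1.19 (without WT pool 2) for Igfbp4. TRAP over input ratios of WT and KO pools overlapped for each of the 10 members.

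KO against WT in TRAP asked whether loss of FosB in NAc-projecting vHPC neurons went with other levels of IGF system mRNA on their ribosomes. By edgeR, 0 of the 7 members tested passed after adjustment, against 0.0682% of the 11727 genes tested, and 0 passed by DESeq2. Igf1, Igfbp2 and Igfbp7 had too few counts to be tested. Before adjustment 2 members, Igfbp6 and Igfbp3, had a p under 0.05, against 6.05% of all genes. The members were chosen with earlier results of these data known, so this count is no test of them as a set. The median log2 change was 0.36 over the 7 members and 0.00 over all genes.

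No member passed, and the 2 with the smallest p pointed in opposite directions, Igfbp6 to a lower and Igfbp3 to a higher level in KO. The Igfbp6 levels of 42.9 to 52.9 CPM in WT TRAP and 21.5 to 35.5 in KO TRAP did not overlap, and it was the single member of the 7 tested with such a gap, against 11.9% of all genes. The means were 48.9 ± 5.32 CPM in WT and 26.7 ± 7.68 in KO (SD, n = 3). KO was at 54.6% of WT, a log2 change of -0.87 (SE 0.19, 95% interval -1.28 to -0.47, edgeR adjusted p = 0.107). The exact permutation p was 0.10, the smallest that 3 against 3 allow. In DESeq2 the adjusted p was 0.0626. In edgeR the adjusted p was 0.00443 when genes of low counts were also kept in the fit and 0.0419 without KO pool 4, while without each of the other pools it ran from 0.156 to 0.499, with the change between -0.96 and -0.74. In KO TRAP 2, the library with high GABA neuron markers, Igfbp6 was lowest, and without that pool the change was -0.74 (edgeR adjusted p = 0.43).

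For Igfbp3 the groups overlapped, from 16.9 to 25.8 CPM in WT TRAP and from 22.9 to 52.1 in KO TRAP, since KO TRAP 2 was level with WT. The means were 22.6 ± 4.91 CPM in WT and 38.1 ± 14.6 in KO (SD, n = 3). KO was at 170% of WT, a log2 change of 0.77 (SE 0.26, 95% interval 0.21 to 1.32, edgeR adjusted p = 0.714), with an exact permutation p of 0.30. Without pool 2 it was 1.03 (edgeR adjusted p = 0.128) and without pool 4 it was 0.47. Both genes also stand in a list that the study drew from these same libraries, so that list adds no independent evidence of their direction. For Igfbp6 the study also ran qPCR in cultured Neuro2A cells overexpressing ΔFosB, where the difference from control was not significant.

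The intervals of the other members in TRAP all held 0. Igf1r was at 11.2 to 20.9 CPM in WT and 19 to 21.8 in KO (log2 change 0.40, 95% interval -0.15 to 0.95), and Igf2r, 26.6 to 39.9 against 31.8 to 40.5 CPM, had a log2 change of 0.19 (95% interval -0.21 to 0.59). For Igfbp4 the log2 change was 0.36 (-0.35 to 1.07) and for Igf2 0.50 (-1.13 to 2.13). Single pools set much of these values. Leaving out each pool in turn, Igf2 ran from 0.05 (without KO pool 2) to 1.80 (without WT pool 1), Igfbp4 from 0.06 (without KO pool 3) to 0.80 (without WT pool 2), Igf1r from 0.22 (without WT pool 3) to 0.69 (without WT pool 1) and Igf2r from 0.08 (without WT pool 3) to 0.40 (without WT pool 1). Without KO pool 2, the pool with high GABA neuron markers, Igfbp4 was 0.62, Igf1r 0.46 and Igf2r 0.11. Igfbp5 had a change of -0.01 (-0.55 to 0.54). None of these intervals shows that the genotypes were alike.

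**Figure D3:**
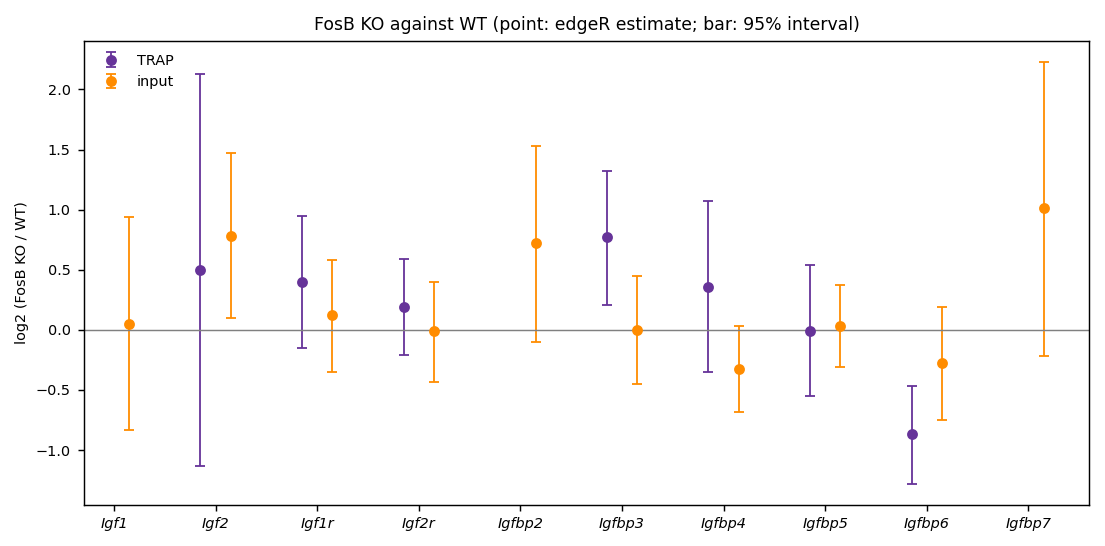
Log2 change from WT to FosB KO in TRAP (purple) and in input (orange) with its 95% interval, from edgeR. Members without a purple point had too few counts in TRAP to be tested, and the Igfbp6 interval in TRAP, -1.28 to -0.47, lies farthest below 0.

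The binding proteins were then set against each other within each library, which does not depend on the scaling between libraries. Igfbp6 made up 68.4%, 64.0% and 63.4% of the summed CPM per kb of the 6 binding proteins in WT TRAP pools 1 to 3. In KO TRAP pools 2 to 4 it made up 46.9%, 38.4% and 46.9%. Every KO TRAP library was below every WT TRAP library. The share of Igfbp3 went from 7.77%, 11.2% and 13.6% in WT TRAP to 17.7%, 23.2% and 24.5% in KO TRAP, also without overlap, whereas those of Igfbp4 (8.57% to 18.0% in WT, 15.8% to 27.5% in KO) and Igfbp5 (5.93% to 13.3% in WT, 9.38% to 17.2% in KO) overlapped. These shares sum to a whole, so a fall of Igfbp6 alone raises the others, and they restate the counts given before and are no separate test.
The summed level itself was 67.3 ± 5.73 CPM per kb in WT TRAP and 54.4 ± 13.4 in KO TRAP (SD, n = 3), with overlap. In input it was 64.5 ± 2.57 in WT (62.1 to 67.2) and 60.6 ± 0.511 in KO (60.2 to 61.2), without overlap. Input was less dominated by a single gene: Igfbp6 held 26.3% to 38.0% in WT input and 23.5% to 29.8% in KO input, and Igfbp4 and Igfbp5 together held most of the rest.

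**Figure D4:**
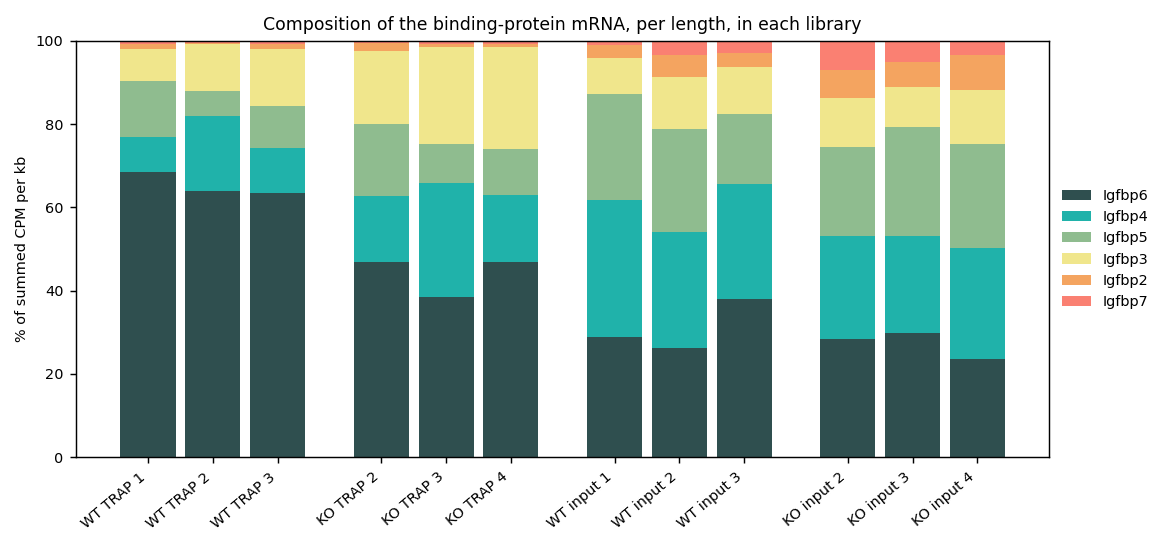
Share of each binding protein in the summed CPM per kb of the 6, in each of the 12 libraries, as stacked bars from 0 to 100%. Igfbp6 takes 63.4% to 68.4% in WT TRAP, 38.4% to 46.9% in KO TRAP and 23.5% to 38.0% in input.

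In input, KO against WT compared the whole punches, in which Fosb itself stood at 62.5% of WT, close to the 59.0% in TRAP. Why the input value was as low was not tested. By edgeR, 0 of the 10 members passed after adjustment, against 0.0312% of the 12816 genes tested, and 0 passed by DESeq2. Before adjustment 1 member had a p under 0.05, against 2.89% of genes. The median log2 change of the members was 0.04. Igfbp2, Igfbp4 and Igfbp7 did not overlap between genotypes, 3 of 10 members against 8.38% of all genes, and each had an exact permutation p of 0.10.

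Igf2 was the member under 0.05 before adjustment. In input it averaged 42.4 ± 20.1 CPM for WT and 72.4 ± 14.9 for KO (SD, n = 3), with the highest WT library, WT input 1 at 64.9, above the lowest KO library at 58.6. The log2 change was 0.78 (SE 0.30, 95% interval 0.10 to 1.47, edgeR adjusted p = 1). Without WT pool 1, whose input library was the shallowest input and had counts on the fewest genes of the inputs, it was 1.22 (edgeR adjusted p = 0.0198). It was 0.52 without WT pool 3 and 0.62 without KO pool 2 (adjusted p = 1 in both). With genes of low counts kept in the fit the adjusted p was 0.00898.

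Igf2 in adult brain is known mainly from meninges and choroid plexus, and markers of both are given beside it. Ptgds, the most abundant of the meningeal fibroblast markers, was at 378, 184 and 113 CPM in WT input and 453, 465 and 256 in KO input. The 8 markers of that list summed to 460, 264 and 165 CPM in WT and 553, 557 and 336 in KO, and of the 5 tested 0 passed in edgeR, with a median log2 change of 0.80. Before adjustment 2 were under 0.05, the collagen genes Col1a1 (1.71, SE 0.52) and Col1a2 (1.5, SE 0.52). In WT, Ptgds and Igf2 had the same order over pools, while in KO the order of pools 2 and 3 differed. Ttr of choroid plexus was at 3.78, 13.3 and 65.2 CPM in WT input and 1.66, 0.445 and 231 in KO input, highest where Igf2 was lowest in each genotype. The 8 choroid plexus and ependymal markers summed to 10.8, 26.2 and 78.2 CPM in WT and 14.3, 8.01 and 266 in KO. Of the 4 tested, 0 passed in edgeR, with a median log2 change of 0.37. Before adjustment 1 was under 0.05, Kl, which was higher in KO (1.16, SE 0.48). The part of these tissues in the Igf2 values was not tested.

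The other input differences were small or rested on few counts. Igfbp2 was at 3.78 to 6.20 CPM in WT and 6.68 to 9.40 in KO (log2 change 0.72, 95% interval -0.10 to 1.53), and Igfbp7 at 0.873 to 2.53 and 2.62 to 5.23 (1.01, -0.22 to 2.23). Igfbp4 went the other way, from 40.7 to 52.4 CPM in WT and from 33.4 to 38.7 in KO (-0.33, -0.68 to 0.03). Without WT pool 1 the changes were 0.60 for Igfbp2, 0.71 for Igfbp7 and -0.20 for Igfbp4. Beside Igfbp7, the 10 endothelial markers summed to 13.4, 26.2 and 15.5 CPM in WT and 33.5, 25.4 and 22.5 in KO, and the 8 mural markers to 80.4, 92.3 and 54.4 in WT and 87.4, 96.6 and 92.7 in KO. Of these, edgeR called 0 of 3 and 0 of 6 tested, with a median log2 change of 0.73 in both lists and with 0 and 2 markers under 0.05 before adjustment. The 2 were the smooth muscle genes Tagln (2.31, SE 0.72) and Acta2 (0.99, SE 0.40), chosen after their values were seen. Their part in the Igfbp7 values was not tested. Igfbp6 was at 18.1 to 27.2 CPM in WT input and 16.0 to 20.0 in KO input, a log2 change of -0.28 (95% interval -0.75 to 0.19) beside the -0.87 in TRAP. The changes of Igf1, Igf1r, Igf2r, Igfbp3 and Igfbp5 lay between -0.01 and 0.12.

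The rest of the pathway was read from 70 further genes in 6 lists. Of these, 51 were tested in TRAP against input over both genotypes, 12 were higher in TRAP, 19 were lower and 20 did not pass, with a median log2 change of -0.11. These are 23.5% higher and 37.3% lower, beside 19.6% and 22.5% of all genes, whose median was -0.01. Of the 9 relatives of the binding proteins, 2 were tested: Nov (CCN3), a secreted matrix protein, was higher (log2 change 0.69, SE 0.11) and Ctgf (CCN2) was lower (-2.25, SE 0.42). Igfbp1, which shares the fold of the members, was below the filter at 0.128 CPM on average.
Of the genes that release or carry IGFs, 4 of 7 were tested and 2 were lower, the protease genes Htra1 (-1.74, SE 0.18) and Pappa2 (-1.15, SE 0.38). Among the insulin ligands and related receptors, Insr (-0.74, SE 0.12), the insulin receptor, and Lrp1 (-0.67, SE 0.08), an endocytic receptor, were lower and M6pr did not pass. Ins1 and Igfals, the partner of Igfbp3 in serum, had no count in any library. None of the 4 genes of the list of Igf2 mRNA binding proteins and H19 was tested.

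Within the cell, adaptors of the receptors divided evenly. Of 17 tested, 5 were higher, with Irs2 (log2 change 0.81, SE 0.10), Grb10 (0.54, SE 0.09) and Sh2b1 (0.44, SE 0.08) changing most, and 5 were lower, with Gab1 (-2.70, SE 0.21), Shc1 (-1.35, SE 0.38) and Sos2 (-0.79, SE 0.11) changing most. Irs2, a docking protein phosphorylated by the insulin and IGF1 receptors, was at 142 CPM on average in WT TRAP and 78.3 in WT input. In the PI3K, Akt and mTOR branch all 25 genes were tested, and 6 were higher and 9 lower. The largest changes were Foxo6 (0.98, SE 0.14), Pik3r2 (0.62, SE 0.07) and Foxo1 (0.45, SE 0.12) upward and Foxo4 (-1.31, SE 0.26), Pik3r3 (-0.71, SE 0.12) and Akt2 (-0.58, SE 0.13) downward, so that genes of the same family lay on both sides.
Between genotypes, edgeR called 0 of 49 of these genes in TRAP and 0 of 51 in input. Before adjustment 4 of 49 had a p under 0.05 in TRAP, beside 6.05% of all genes, and 0 of 51 in input, beside 2.89%. The 4 were Foxo1, Irs1 and Irs4, higher in KO, and Ide, lower, and were named after their values were seen. Foxo1, a transcription factor that Akt keeps out of the nucleus, changed by 0.46 (SE 0.16, edgeR adjusted p = 0.701), from 54.6 to 60.1 CPM in WT TRAP and 57.6 to 94.3 in KO TRAP, with overlap.

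**Figure D5:**
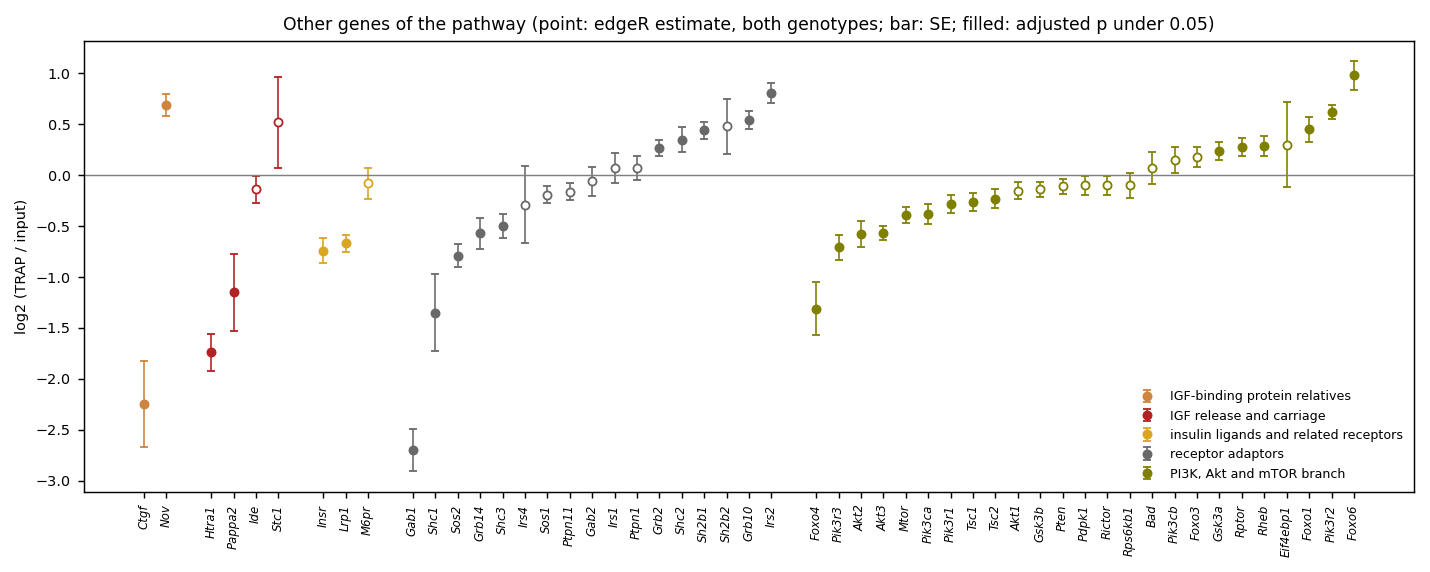
Log2 change from input to TRAP over both genotypes (edgeR estimate and SE) for the 51 further pathway genes tested, grouped by list, with filled points at an adjusted p under 0.05. Gab1 lies lowest at -2.70 and Foxo6 highest at 0.98, and the adaptor and PI3K lists spread to both sides of 0.

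Genes with the most similar pattern were found by the root mean square difference of gene-centred log2(CPM + 0.5) over the 12 libraries, for the 7 members with a mean of at least 5 CPM. Igf1r and Igf2r were the most alike of the member pairs, at 0.37, and Igf2 and Igfbp6 the least, at 2.75. The nearest to Igf2 were Mlc1 (0.69) and Sparc (0.72), against a median of 2.34 over all genes. Those nearest to Igfbp6 were Gm11960 (0.22) and 2610528E23Rik (0.25), with a median of 0.66, and those nearest to Igfbp3 were Rab3b (0.24) and Foxo1 (0.25), with a median of 0.54. For Igfbp5 they were Itga8 (0.19) and Kcnh7 (0.22), and for Igfbp4 Rpp25 (0.23) and St3gal1 (0.25). The receptors were nearest to genes with little change, Igf1r to Kdm3b and Dcc (both 0.18) and Igf2r to Slc7a14 and Fbxo10 (both 0.13). The 12 libraries share fraction and genotype, so these distances describe a pattern and say nothing of shared control.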

How the data were processed

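Polyribosome-associated RNA and input RNA from vHPC punches were sequenced by the authors, mapped to mm9 with TopHat and counted per gene with HTSeq against Gencode vM1, and the authors deposited raw counts, not normalized, per library. The strand setting is not given in the sources used here, and the submitters' processing notes also name DESeq2. Rows without a gene were left out (reads on no gene, 20.6% to 27.1%, and ambiguous reads, 2.11% to 2.56%). A title without the word input was read as TRAP.

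The members and gene lists were chosen with earlier results of these data known. Counts were tested in edgeR 4.0.16 (R 4.3.3) with its filter by group, TMM, robust dispersions and the quasi-likelihood test, and p-values were adjusted by Benjamini-Hochberg over all genes tested. Exact two-sided permutation tests used log2(CPM + 0.5). TRAP and input libraries of a pool come from the same mice by the labels, and their deviations correlated at 0.0582 to 0.106, so paired fits are given where they change a call. Alternatives were DESeq2 1.42.0, RLE, total counts, no filter, a mean of 10 counts, no mitochondrial genome genes, no robust dispersion, all 12 libraries, a pool block and leaving out each pool. Levels per length were repeated with the longest transcript. The model fits were tested on simulated data.

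The text names all members, Fosb, pathway genes with an adjusted p under 0.05 (the 3 largest in each direction where over 6 passed), the leading marker of each list, markers without counts in TRAP and the 2 genes nearest in pattern. Other genes were named after their values were seen. Stretches of 75 bases from the members' exons, aligned to mm9 with minimap2 2.31, had no other place within 2 mismatches. Promoter sequences are RefSeq's.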

Additional observations from a re-analysis of the deposited data

How the results depend on the processing

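Of 760 repeats of the members' tests, 695 kept direction and side of the threshold, 16 lost a call, 13 gained one and 36 turned direction, and no alternative moved the median change by more than 0.0559 (log2) over the genes tested in the report. Over all genes kept without a filter, the TRAP against input median was -0.171 in place of -0.0123, since more genes of low counts were in it. Genes called numbered 3096 for TRAP against input in WT (1289 to 3243 leaving out a pool) and 3626 in KO (1982 to 3181). KO against WT called 8 genes in TRAP (DESeq2 18, no filter 41, leaving out a pool 5 to 20) and 4 in input (DESeq2 8, all 12 libraries 7, no filter 19, leaving out a pool 1 to 5), and the interaction 1 (0 without robust dispersion, 0 to 1 leaving out a pool). Members called between genotypes were 1 in TRAP without a filter, and 0 to 1 leaving out a pool, and the same in input. The causes were not tested.

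Pool numbers 2 and 3 occur in both genotypes but mark different mice, so a replicate block between genotypes rests on a number alone. With that block, 20 genes and 1 member, Igf2 at 1.36 (adjusted p = 1.61e-05), were called in input, Igfbp6 in TRAP was -1.07 and Igfbp3 0.25, and Igfbp5 in TRAP was 0.23, Igf1r in input -0.04, Igfbp3 in input -0.21 and the Igfbp5 interaction 0.01. Calls of TRAP against input that the paired block changed are given beside those results, and it changed no other.

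Directions turned as follows, none of them at a call. Igfbp5 in TRAP was 0.00 in DESeq2 and with a mean of 10 counts and 0.02 with total counts, Igfbp3 in input -0.01 and the Igfbp5 interaction 0.01 with total counts. Leaving out a pool, TRAP against input ran from -0.12 to 0.09 for Igf2r over both genotypes, -0.33 to 0.04 in WT and -0.12 to 0.26 in KO, and from -0.01 to 0.14 for Igfbp3 in WT. KO against WT ran from -0.23 to 0.35 for Igfbp5 in TRAP, and in input from -0.30 to 0.40 for Igf1, -0.07 to 0.34 for Igf1r, -0.23 to 0.10 for Igf2r, -0.10 to 0.12 for Igfbp3 and -0.15 to 0.16 for Igfbp5. The interaction, -1.45 for Igf1 over all pools, ran from -2.35 to 1.86 (without WT pool 3). It ran from -0.77 to 0.53 for Igf2 (-0.37 over all pools), -0.12 to 0.73 for Igf1r (0.28) and -0.32 to 0.18 for Igfbp5 (-0.03). Counts under 30 in TRAP limit Igf1, Igf2, Igfbp2 and Igfbp7, and nothing in the labels says how pools were assigned to sequencing runs.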
